A study of Sus scrofa with 12 samples.

Results

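The genes described here are 7 receptors and transcription factors for which granulosa cells, the hormone-producing cells of the ovarian follicle, are known: the gonadotropin receptors FSHR and LHCGR, the prolactin receptor PRLR, the oestrogen receptor ESR2 and the transcription factors NR5A2, GATA4 and FOXL2. They were chosen by name and matched through the symbol of the platform annotation, which gave 13 probe sets for 7 genes, of 23999 probe sets and 6765 named genes tested. Where a gene had several probe sets, the one with the highest mean over the 12 arrays stood for it and the others served as a check. A probe set holds several short probes of 1 transcript and gives 1 level per array.

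The arrays came from 4 kinds of pig cells with 3 replicates each: mature adipocytes from fat tissue (MA), fat cells that lost their specialised state in ceiling culture (DFAT), granulosa cells from ovarian follicles (GC), and granulosa cells that did so in vitro (DFOG). Both cultured kinds had been grown to semiconfluence. The labels call the replicates biological but name no animal, breed, age, follicle stage or culture, so p-values measure only the spread between these samples, which may be partly technical. DFOG replicates 2 and 3 were almost the same array (their log2 levels differed with an SD of 0.07, where the 11 remaining pairs within a group gave 0.31 to 0.62), and their mean was counted as 1 sample, so DFOG has n = 2.

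As background, follicle-stimulating hormone acts through FSHR on granulosa cells, and luteinising hormone acts through LHCGR, which granulosa cells gain late in follicle growth. Both receptors couple to a G protein that raises cyclic AMP, and protein kinase A then switches on genes of steroid hormone synthesis together with factors such as NR5A2 and GATA4. FOXL2 keeps granulosa cells in their ovarian fate, ESR2 is the oestrogen receptor for which granulosa cells are best known, and PRLR passes the prolactin signal to JAK2 and STAT5. In the RefSeq annotation of the Sscrofa11.1 assembly LHCGR is the next protein-coding gene after FSHR.

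The labels were checked against defining markers. INHA, the inhibin alpha subunit, lay at 14.43 to 14.85 in GC and at 7.59 or below in the other groups, and ADIPOQ, the fat cell hormone adiponectin, lay at 13.67 to 14.18 in MA and at 6.82 or below elsewhere. The aromatase gene CYP19A1, also a granulosa marker, was no higher in GC (4.84 to 5.12) than in MA (4.69 to 5.25). Actin control probe sets near the 3′ end of the message read above those near the 5′ end, a gap that widens with degraded RNA, by 0.72 to 2.47 in the isolated cells (MA, GC) and 0.15 to 0.97 in the cultured ones (DFAT, DFOG), and beyond its use as a covariate the part of this gap in the changes between them was not tested. Values are log2 levels made relative to the rest of the array, and the added poly-A control RNAs differed between groups, at 8.29 ± 0.18 (SD, n = 3) in MA, 7.66 ± 0.43 (n = 3) in DFAT, 6.95 ± 0.30 (n = 3) in GC and 7.74 ± 0.02 (n = 2) in DFOG. When arrays were centred on those controls, the median over all probe sets went from -0.07 to 1.27 for GC minus MA, from -0.02 to -0.81 for DFOG minus GC and from -0.07 to 0.56 for DFAT minus MA. It turned the split of calls from 4737 higher and 4976 lower to 19065 and 1146 for GC minus MA, from 2958 and 3013 to 1062 and 9355 for DFOG minus GC, and from 3765 and 3941 to 6884 and 1340 for DFAT minus MA. That centring shifts all probe sets of an array by the same amount. Unless it is named, the changes below are on the deposited scale, relative to the rest of the array.

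Of the 7 genes, 4 separated isolated granulosa cells from fat cells: NR5A2, LHCGR, GATA4 and FSHR were higher in GC than in MA, while FOXL2, ESR2 and PRLR did not pass the test (with poly-A centring all 7 were called higher, and FOXL2 and ESR2 turned from below to above 0). Of all probe sets, 19.7% were called higher in this contrast, and the 4 called genes are 57.1% of the set. In culture, 3 of the 7 fell in DFOG against GC (LHCGR, NR5A2 and FSHR, 42.9%, where 12.6% of all probe sets were called lower and 12.3% higher) and none rose, and with poly-A centring 5 fell. In fat cells 1 of the 7 fell in DFAT against MA (LHCGR, 14.3%, near the 16.4% of all probe sets called lower, with 15.7% higher), against 2 higher and none lower with poly-A centring. Those centred counts stand beside 19065 of all 23999 probe sets called higher for GC minus MA under the same centring. It also gave 9355 called lower for DFOG minus GC and 6884 called higher for DFAT minus MA. Between the cultured cells, 3 of the 7 stayed higher in DFOG than in DFAT (FSHR, NR5A2 and GATA4, 42.9%, where 4.31% of all probe sets were called higher). In MA and DFAT the probe sets of FSHR, NR5A2 and GATA4 stood at the 9.24 to 37.6 percentile of their arrays. Without detection calls such levels cannot be told from background, so differences against fat cells are given as differences in signal, with no fold. Over the 7 genes the median log2 change was 3.36 for GC minus MA, -0.32 for DFOG minus GC, 0.02 for DFAT minus MA and 0.44 for DFOG minus DFAT, where all probe sets had medians of -0.07, -0.02, -0.07 and -0.01. The change in granulosa cells was lower than that in fat cells for 2 of the 7 (LHCGR and NR5A2), where 11.6% of all probe sets were called lower in this interaction. The mean level of 9 other granulosa markers also fell, from 10.64 to 10.99 in GC to 7.36 to 7.56 in DFOG. With FSHR the list holds 10 genes, of which 7 were called lower, while CYP19A1, INHBA and GJA1 were not called. The mean of 7 fibroblast markers went from 5.14 to 5.55 in GC to 8.96 to 9.07 in DFOG. The part of fibroblasts in the result was not tested. Fewer granulosa cells and less RNA per cell cannot be told apart in such bulk samples, nor can loss of the specialised state and culture itself.

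**Figure D1:**
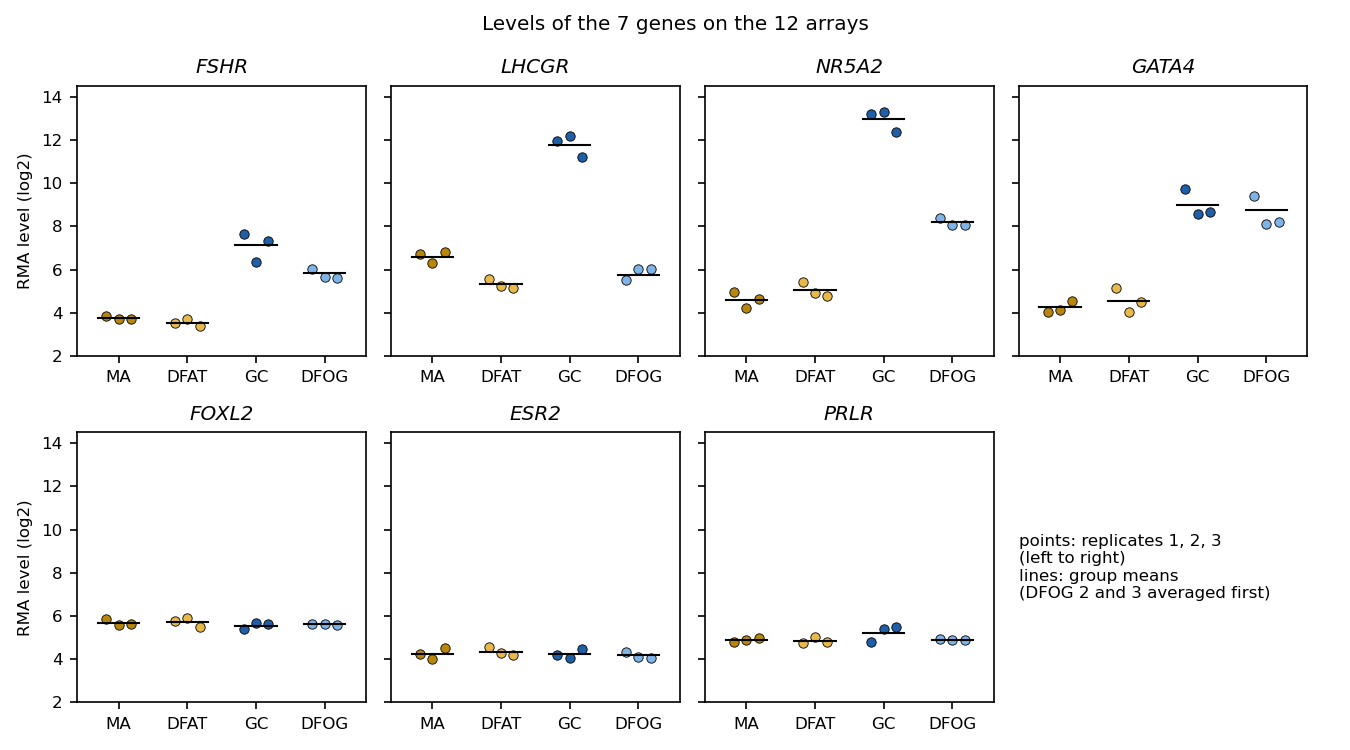
Log2 RMA levels of the 7 genes (vertical axis) in the 4 groups (horizontal axis), with 1 point per array and a line at each group mean, DFOG replicates 2 and 3 averaged first. GC points of FSHR, LHCGR, NR5A2 and GATA4 lie above all MA and DFAT points, while the points of FOXL2, ESR2 and PRLR overlap between groups.

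Among the receptors, LHCGR fell the most in culture. Its levels in GC were 11.94, 12.19 and 11.23, and those in DFOG were 5.51, 6.04 and 6.01. In fat cells LHCGR read 6.72, 6.29 and 6.79 in MA and 5.58, 5.24 and 5.16 in DFAT. Every GC array was far above every other array, MA lay between 6.29 and 6.79, and DFOG and DFAT overlapped. The probe set stood at the 49.1 to 54.8 percentile of its arrays in MA, 34.2 to 39.6 in DFAT and 38.6 to 44.5 in DFOG. Without detection calls the DFAT and DFOG levels on it cannot be told from background. The change from GC to DFOG was -6.02 ± 0.29 (SE, limma adjusted p = 1.26e-07), and GC lay 5.18 ± 0.26 above MA (adjusted p = 5.88e-08). From MA to DFAT LHCGR changed by -1.28 ± 0.26 (adjusted p = 0.00289), a call that was lost in 2 alternatives, at -1.20 with actin as a covariate (adjusted p = 0.0764) and at -0.64 after poly-A centring (adjusted p = 0.134). Markers of several cell types moved between MA and DFAT. The mean level of 6 macrophage markers went from 5.94 to 7.09 in MA to 4.26 to 4.46 in DFAT. That of 7 adipocyte markers fell more, from 12.44 to 12.65 in MA to 6.64 to 7.85 in DFAT. That of 7 fibroblast markers rose, from 7.11 to 8.14 in MA to 10.32 to 10.79 in DFAT. The part of any of these cells in the LHCGR fall was not tested. The difference between the changes in granulosa and fat cells was -4.74 ± 0.39 (interaction, adjusted p = 9.74e-06).

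By group means the order of LHCGR levels was GC, MA, DFOG, DFAT. DFOG minus MA was -0.84 ± 0.29 (limma adjusted p = 0.0468), a call close to the threshold that was not recomputed under the alternatives. DFOG did not differ from DFAT beyond the spread (0.44 ± 0.29, 95% interval -0.20 to 1.08, adjusted p = 0.549). The other LHCGR probe set gave the same large fall from GC to DFOG (-6.37 ± 0.36) and a larger one from MA to DFAT (-2.09 ± 0.32). It differed on the rest of the order: MA and DFOG overlapped there (DFOG minus MA -0.20 ± 0.36, adjusted p = 0.735), and DFOG lay 1.89 ± 0.36 above DFAT (adjusted p = 0.00669). Whether some LHCGR signal remained in DFOG above that of cultured fat cells therefore depended on the probe set, and the mean of both gave 1.16 (adjusted p = 0.0449). LHCGR is also a gene of theca cells, the steroid-making cells outside the follicle wall. Of 5 theca markers measured, 2 were higher in GC than in MA, where 19.7% of all probe sets were. They were INSL3 (8.06 to 9.59 in GC, 6.14 to 6.21 in MA) and NR2F2 (1.47 ± 0.17). NR2F2 was also higher in DFAT than in MA (0.76 ± 0.17, adjusted p = 0.00501). The mean level of the theca list reached 7.27 in GC and 6.38 in MA. In the cultured cells that mean was higher, at 7.72 to 7.82 in DFAT and 7.75 to 7.82 in DFOG. From GC to DFOG 1 of the 5 fell (INSL3) and 1 rose (ACTA2, by 6.49 ± 0.27), where 12.6% of all probe sets fell and 12.3% rose. The theca enzyme gene CYP17A1 averaged 4.81 in GC and 5.15 in MA. The part of theca cells in the LHCGR level was not tested.

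FSHR fell too, but kept a signal above that of the fat cells. Its levels were 7.66, 6.36 and 7.34 in GC and 6.04, 5.66 and 5.62 in DFOG. In MA they were 3.85, 3.73 and 3.71, and in DFAT 3.52, 3.71 and 3.38. No GC array overlapped DFOG, although GC replicate 2 came close to DFOG replicate 1, and no DFOG array came near the fat cells. In DFOG the FSHR probe set stood at the 39.5 to 44.9 percentile of its arrays. FSHR changed by -1.28 ± 0.31 (SE) from GC to DFOG, 2.43-fold (limma adjusted p = 0.0116), and by -2.07 with poly-A centring. It remained 2.30 ± 0.31 higher in signal in DFOG than in DFAT (adjusted p = 0.000735). GC lay 3.36 ± 0.28 above MA (adjusted p = 2.95e-06).

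The order of FSHR levels was GC, DFOG and then the fat cells, with the signal of DFOG 2.08 ± 0.31 above MA (adjusted p = 0.000368) and MA and DFAT overlapping (DFAT minus MA -0.22 ± 0.28, 95% interval -0.84 to 0.40, adjusted p = 0.608). The difference between the changes in granulosa and fat cells was -1.06 ± 0.42, which did not pass the test (interaction, adjusted p = 0.101). It passed without GC replicate 2 (-1.44, adjusted p = 0.00463), with DFOG replicates 2 and 3 as separate samples (-1.12, adjusted p = 0.0470) and with poly-A centring (-2.48, adjusted p = 0.000424). The MA signal of FSHR, at the 11.9 to 13.9 percentile, cannot be told from background. A fall in fat cells therefore had little or no room to show, and the interaction may restate the fall from GC to DFOG. FSHR had only 1 probe set, with no other to check it.

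PRLR, a receptor of the cytokine receptor class, varied little. Its levels were 4.78, 5.41 and 5.47 in GC, 4.93, 4.87 and 4.87 in DFOG, 4.82, 4.87 and 5.01 in MA and 4.76, 5.05 and 4.78 in DFAT. GC replicates 2 and 3 were the highest arrays, while GC replicate 1 lay among the other groups. The change from GC to DFOG was -0.32 ± 0.22 (95% interval -0.80 to 0.16, limma adjusted p = 0.353), and GC minus MA was 0.32 ± 0.19 (adjusted p = 0.215). Both passed without GC replicate 1 (-0.54, adjusted p = 0.0440, and 0.55, adjusted p = 0.0195) and with poly-A centring (-1.11, adjusted p = 0.0316, and 1.67, adjusted p = 0.000267), and GC minus MA also with array weights (0.48, adjusted p = 0.0137). The probe set stood at the 28.0 to 37.2 percentile of its array throughout, so its signal was low in all groups. The files hold no detection calls, and such a level cannot be told from background.

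NR5A2, also called LRH-1, is a nuclear receptor that drives genes of steroid synthesis, and its signal separated the lineages. It read 13.21, 13.31 and 12.39 in GC and 8.39, 8.06 and 8.04 in DFOG. The fat cells read 4.95, 4.23 and 4.63 in MA and 5.41, 4.94 and 4.78 in DFAT. The groups GC and DFOG overlapped with no other group, whereas MA and DFAT overlapped with each other. From GC to DFOG NR5A2 changed by -4.75 ± 0.31 (SE), 27.0-fold (limma adjusted p = 1.19e-06), and GC lay 8.37 ± 0.28 above MA (adjusted p = 3.49e-09). What was left in DFOG was still 3.18 ± 0.31 above DFAT in signal (adjusted p = 6.61e-05), and 3.62 ± 0.31 above MA (adjusted p = 5.72e-06). DFAT and MA did not differ beyond the spread (0.44 ± 0.28, 95% interval -0.18 to 1.06, adjusted p = 0.279), and the changes in the 2 lineages differed by -5.19 ± 0.42 (interaction, adjusted p = 8.66e-06). The MA signal cannot be told from background, so a fall in fat cells had little or no room to show.

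The 5 probe sets of NR5A2 did not all behave alike. Those with high signal in GC changed from GC to DFOG by -4.75, -5.08 and -5.73, with adjusted p between 5.71e-07 and 6.01e-06, and each stayed higher in DFOG than in DFAT, by 3.18, 2.52 and 2.02. Another read 5.32 to 5.60 in GC and 3.49 to 3.76 in DFOG (-1.81 ± 0.18, adjusted p = 2.28e-05), and there DFOG and DFAT overlapped (-0.09 ± 0.18). The last lay at 2.98 to 3.59 on all arrays, within the lowest 10.1% of its array, and did not pass the test in any of the contrasts. The mean over all 5 gave a GC minus MA difference of 5.06 and a DFOG minus DFAT difference of 1.53, both called.

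**Figure D2:**
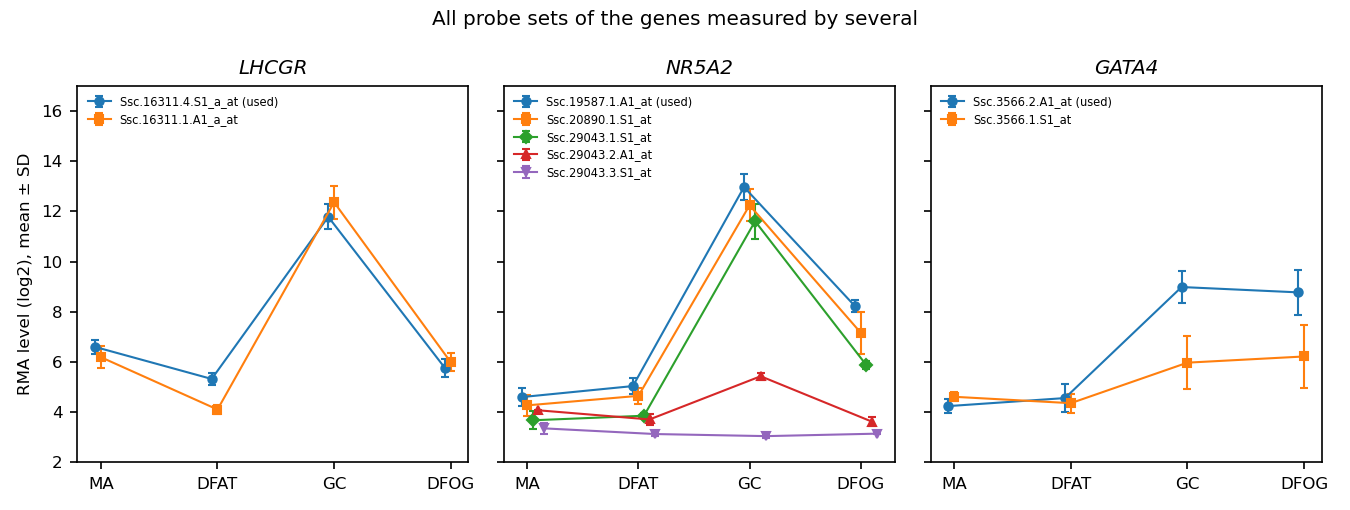
Mean ± SD of the log2 RMA level (vertical axis) in each group (horizontal axis) for every probe set of LHCGR, NR5A2 and GATA4, the genes with several (n = 3, and 2 for DFOG). Both LHCGR and 3 of 5 NR5A2 probe sets drop steeply from GC to DFOG, while neither GATA4 probe set does.

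GATA4, a zinc finger factor of the gonads and heart, was high in granulosa cells and did not pass the test for a change in culture. It read 9.74, 8.57 and 8.65 in GC, and 9.41, 8.10 and 8.18 in DFOG. In the fat lineage it read 4.04, 4.14 and 4.54 in MA and 5.17, 4.04 and 4.48 in DFAT. GC and DFOG overlapped, and both stood clear of MA and DFAT. The change from GC to DFOG was -0.21 ± 0.45 (SE, 95% interval -1.21 to 0.79, limma adjusted p = 0.820), and it passed the test, downwards, only after poly-A centring (adjusted p = 0.0438). DFOG lay 4.21 ± 0.45 above DFAT in signal (adjusted p = 0.000125), and GC lay 4.74 ± 0.41 above MA (adjusted p = 3.38e-06). MA and DFAT did not differ beyond the spread (0.32 ± 0.41, 95% interval -0.57 to 1.21, adjusted p = 0.611).

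Replicate 1 was the highest GATA4 array in both GC and DFOG. At each of the 3 replicate numbers DFOG read lower than GC, but DFOG replicates 2 and 3 count as 1 sample. On the second GATA4 probe set replicate 1 was again the highest, with 7.20 against 5.24 and 5.49 in GC and 7.11 against 5.35 and 5.31 in DFOG. There DFOG replicate 2 (5.35) read above GC replicate 2 (5.24). The labels do not say whether replicates with the same number came from 1 source. The change of the second probe set from GC to DFOG did not pass the test either (0.25 ± 0.58, 95% interval -1.04 to 1.53, adjusted p = 0.842). Its differences between the lineages were smaller and did not pass the test (GC minus MA 1.36 ± 0.52, adjusted p = 0.0588, and DFOG minus DFAT 1.86 ± 0.58, adjusted p = 0.0875), although neither pair of groups overlapped. The mean of both probe sets gave a GC minus MA difference of 3.05 (adjusted p = 0.000180).

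FOXL2, a forkhead factor of ovarian identity, did not pass the test in any contrast without poly-A centring. Its levels were 5.39, 5.67 and 5.62 in GC, 5.62, 5.61 and 5.59 in DFOG, 5.89, 5.57 and 5.63 in MA and 5.76, 5.92 and 5.48 in DFAT. All 4 groups overlapped or lay within 0.16 of each other in their means. GC minus MA was -0.14 ± 0.16 (SE, 95% interval -0.50 to 0.23, limma adjusted p = 0.551), and DFOG minus GC was 0.05 ± 0.18 (95% interval -0.35 to 0.46, adjusted p = 0.898). Its single probe set stood at the 37.6 to 43.2 percentile of the array in every group. The label of granulosa cells would lead one to look for FOXL2 RNA in GC, and this probe set did not separate GC from fat cells. Whether the probe set reads FOXL2 RNA was not tested.

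ESR2 gave the same picture. It read 4.17, 4.03 and 4.46 in GC, 4.32, 4.09 and 4.07 in DFOG, 4.24, 4.02 and 4.51 in MA and 4.57, 4.30 and 4.19 in DFAT. All groups overlapped, and the group means spanned 0.16. GC minus MA was -0.04 ± 0.18 (SE, 95% interval -0.44 to 0.37, limma adjusted p = 0.901), and DFOG minus GC was -0.02 ± 0.21 (95% interval -0.48 to 0.43, adjusted p = 0.960). The single ESR2 probe set stood at the 18.2 to 26.6 percentile of the array over all groups.

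**Figure D3:**
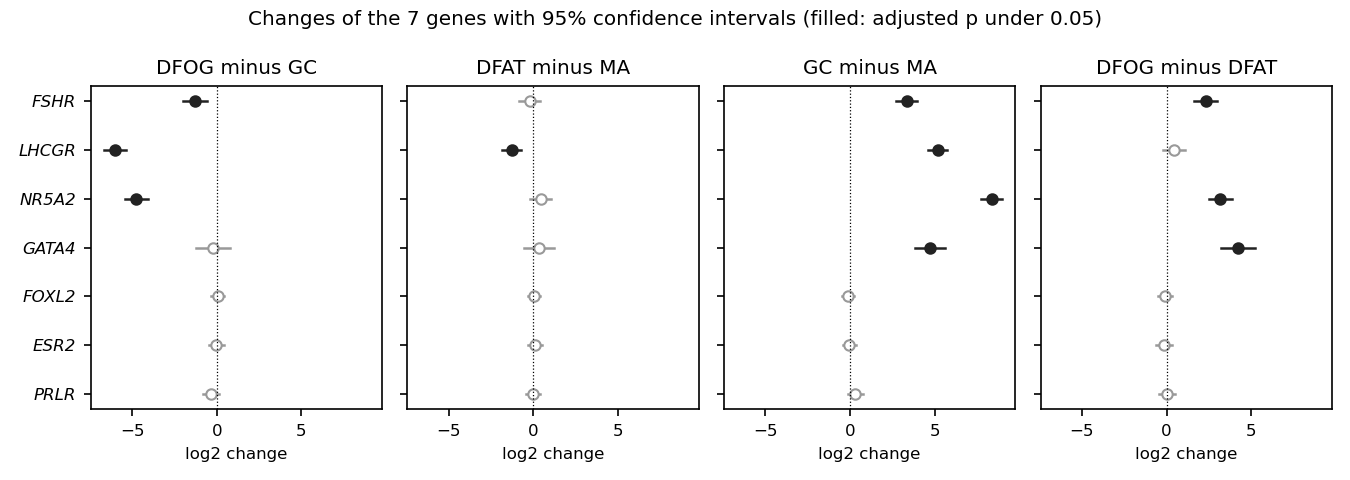
Log2 changes (horizontal axis) of the 7 genes (vertical axis) in the 4 contrasts, with lines for the 95% confidence interval and filled points where the limma adjusted p is under 0.05. LHCGR (-6.02) and NR5A2 (-4.75) lie far left in DFOG minus GC, GATA4 (-0.21) lies near 0 there and at 4.21 in DFOG minus DFAT.

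For 5 of the genes a relative of the same family or class was measured. NR5A1, or SF-1, the nuclear receptor closest to NR5A2, went from 9.17 to 9.74 in GC to 8.11 in both DFOG samples, a change of -1.27 ± 0.20 (SE, limma adjusted p = 0.000716), and stayed 1.48 ± 0.20 above DFAT (adjusted p = 0.000626). GATA6, which overlaps with GATA4 in function in the ovary, averaged 11.68 ± 0.45 (SD, n = 3) in GC and read 10.12 in both DFOG samples (-1.56 ± 0.52, adjusted p = 0.0497), a call that was lost when any 1 of 8 of the 12 arrays was left out (adjusted p up to 0.188). Unlike GATA4, GATA6 rose in fat cells, from 4.08 to 4.75 in MA to 6.09 to 8.12 in DFAT (2.98 ± 0.47, adjusted p = 0.000485). Whether the changes of the 2 GATA genes differ was not tested. FOXO1, another forkhead factor of granulosa cells, read 13.29 to 13.31 in GC and 10.08 to 10.57 in DFOG (-2.97 ± 0.21, adjusted p = 2.20e-06).

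ESR1, the other oestrogen receptor, read 6.10 to 8.90 in GC and 4.66 to 4.89 in DFOG, with no overlap (-2.29 ± 0.71, adjusted p = 0.0368). Its call was lost without DFOG replicate 1 (-2.40, adjusted p = 0.132), and without GC replicate 1, the array at 8.90, the change was -1.37. GHR, the growth hormone receptor and a class relative of PRLR, was highest in fat cells, at 10.62 to 10.92 in MA and 5.88 to 7.12 in DFAT (-4.15 ± 0.30, adjusted p = 1.36e-06). In the granulosa lineage GHR read 6.73 to 7.25 in GC and 5.39 to 5.97 in DFOG (-1.32 ± 0.33, adjusted p = 0.0125).

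**Figure D4:**
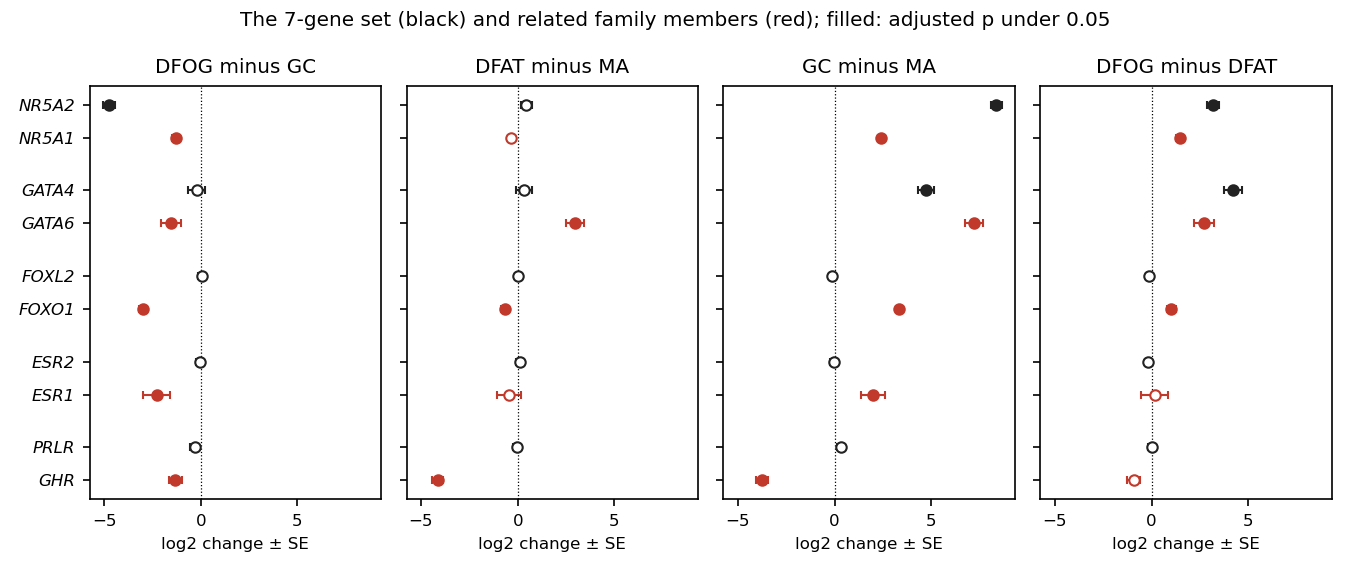
Log2 change ± SE (horizontal axis) in 4 contrasts for 5 of the genes (black) and a family relative of each (red), filled where the limma adjusted p is under 0.05. On the deposited scale FOXL2, ESR2 and PRLR sit near 0 in these contrasts (poly-A centring, not drawn, moves GC minus MA to 1.21, 1.31 and 1.67), while FOXO1 (-2.97), ESR1 (-2.29) and GHR (-1.32) lie below 0 in DFOG minus GC.

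Genes acting up- and downstream were read as 5 lists, and each count is set against 1 probe set per named gene, of which 17.3% were higher and 13.4% lower in DFOG than in GC, and 20.7% higher and 20.4% lower in DFAT than in MA. Of 14 known targets of these receptors and factors, 8 fell and 2 rose in DFOG, with a median of -2.17 against 0.03 over all named genes. HSD17B1, which makes oestradiol, changed by -8.40, INHA by -7.20, the activin-binding protein FST by -5.19 and the electron carrier FDXR by -4.20 (limma adjusted p between 1.73e-09 and 1.84e-06). In the opposite direction, HSD3B1, which makes progesterone, rose by 5.88 ± 0.46 (adjusted p = 4.02e-06), and CYP11A1, the side-chain cleavage enzyme that starts steroid synthesis, rose by 2.31 ± 0.47 (adjusted p = 0.00398, and 0.0505 without DFOG replicate 1). The aromatase gene CYP19A1 (0.17, adjusted p = 0.633) and STAR, which carries cholesterol into mitochondria (-0.54, adjusted p = 0.242), did not pass the test. In fat cells 2 of these 14 fell and 1 rose, with a median of -0.02.

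In gonadotropin receptor signalling 13 of 26 listed genes were measured, of which 3 rose and 1 fell in DFOG against GC, with a median of 0.07. SGK1, a kinase that follicle-stimulating hormone induces in granulosa cells, rose by 4.29 (adjusted p = 3.79e-05), and RGS2, a brake on G protein signals, fell by 3.34 (adjusted p = 3.42e-06). The other genes that rose were PRKAR2A, a regulatory subunit of protein kinase A, and the cyclic AMP response factor CREM, and neither call was stable. PRKAR2A lost it with actin as a covariate (adjusted p = 0.125), with poly-A centring (0.215) and without DFOG replicate 1 (0.107). CREM lost it with actin as a covariate (adjusted p = 0.147), with poly-A centring, where its sign turned (0.658), and without DFOG replicate 1 (0.139), GC replicate 1 (0.0644) or GC replicate 3 (0.0803). GNAS, the G protein subunit shared by both gonadotropin receptors (-0.05, adjusted p = 0.886, on a probe set with group means of only 3.70 to 3.89), and the kinase subunits PRKACA (0.28, adjusted p = 0.632) and PRKACB (0.07, adjusted p = 0.827) did not pass the test. RGS2 also fell in DFAT against MA, by 3.15. Of the genes of the response to the surge of luteinising hormone, 10 of 18 were measured, and 2 rose and 2 fell (median 0.11). The pentraxin PTX3 rose by 2.78 (adjusted p = 0.00296). The factor CEBPB changed by 1.47, a call lost with actin as a covariate (adjusted p = 0.181), with poly-A centring (0.182) and without DFOG replicate 1 (0.195). In the other direction, the progesterone receptor PGR changed by -1.18 (adjusted p = 0.0201). PGR lost its call without DFOG replicate 1 (adjusted p = 0.129), without GC replicate 2 (0.0706) and with actin as a covariate (0.262). The epidermal growth factor family ligand AREG (-1.86, adjusted p = 0.0365) lost it when any 1 of 7 of the 12 arrays was left out (adjusted p up to 0.132).

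Of the other gonadal nuclear receptors, factors and cofactors 21 of 33 were measured, and 5 fell and 2 rose in DFOG against GC (median -0.27). The genes that fell were FOXO1, ESR1, GATA6, NR5A1 and the receptor coactivator NCOA1 (-1.35, adjusted p = 0.00169, and -1.32 in DFAT against MA). Those that rose were SOX9, the factor of the testis counterpart of granulosa cells (2.44, adjusted p = 2.42e-05), and the orphan receptor NR2F1 (1.97, adjusted p = 2.63e-05). WT1, a factor of the early gonad, did not pass the test (0.99, adjusted p = 0.338). Of prolactin receptor signalling and related receptors 11 of 15 were measured, and 4 fell and none rose in DFOG against GC (median -0.13). They were STAT5A, a factor that carries the prolactin signal (-1.72, adjusted p = 0.000340), GHR, the feedback inhibitor SOCS1 (-1.88, adjusted p = 0.0112) and IGF1 (-1.21, adjusted p = 0.00927). Of these, SOCS1 and IGF1 lost their call without DFOG replicate 1 (-1.88 and -0.99). IGF1 lost it also with actin as a covariate (-0.63, adjusted p = 0.160). The other STAT5 gene on the list, STAT5B, was not called in DFOG against GC, with means of 7.35 in GC and 7.57 in DFOG. JAK2 was not called either (7.62 in GC and 7.79 in DFOG). In DFAT against MA 5 of the 11 fell, STAT5A among them (-1.33), and 2 rose.

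**Figure D5:**
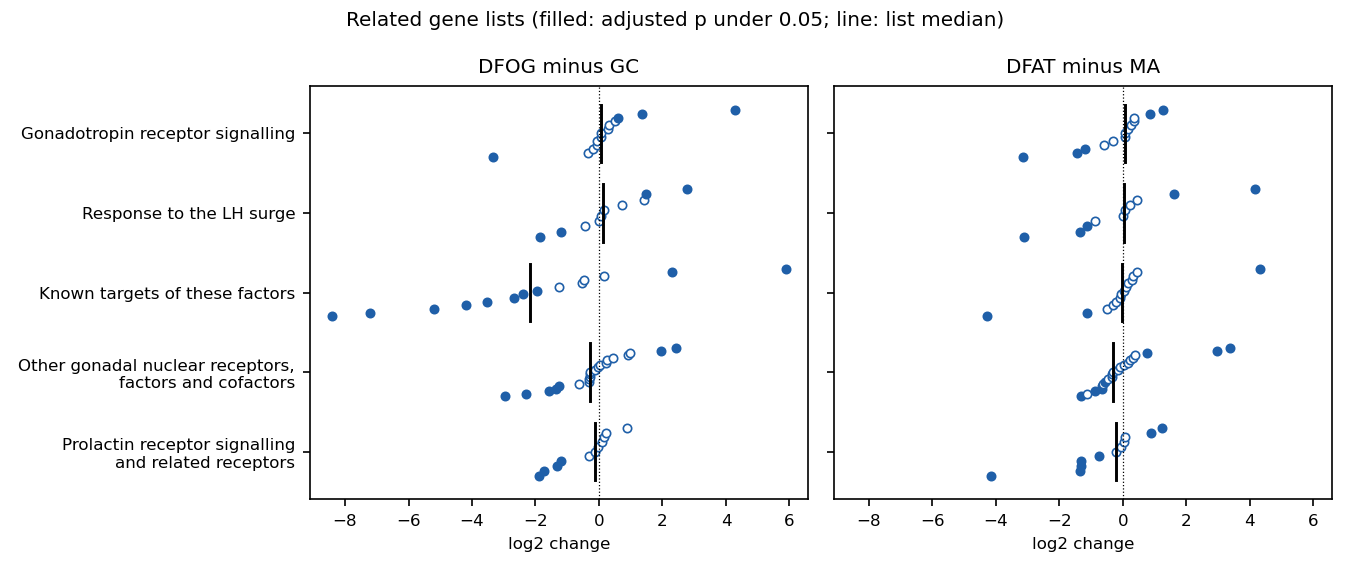
Log2 change (horizontal axis) of each measured gene of the 5 related lists (vertical axis) in DFOG minus GC and DFAT minus MA, filled where the limma adjusted p is under 0.05, with a line at the list median. The known targets have a median of -2.17 in DFOG minus GC and -0.02 in DFAT minus MA.

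Genes whose pattern over the 11 samples was most like that of each of the 4 varying genes were found by Pearson correlation among 1442 named genes whose group means spanned at least 2 on the log2 scale. The samples fall into 4 groups, so these values mainly compare group means and carry no p-value. For FSHR they were PRR15 (r = 0.980), NR5A1 (0.978) and GABRA4 (0.970). For LHCGR they were SFTPC (0.990), RHBG (0.987) and JAKMIP1 (0.986). NR5A2 was matched most closely by GCLC (0.995), a glutathione synthesis enzyme, MAP2 (0.988) and GALP (0.986). GATA4 was matched by PERP (r = 0.980), BPGM and ALCAM (0.970). The group means of PERP and BPGM were somewhat higher in DFOG (11.14 and 9.86) than in GC (10.68 and 9.61), and that of ALCAM was slightly lower (9.58 and 9.74). Among the 4 genes themselves FSHR and NR5A2 were most alike (r = 0.952) and LHCGR and GATA4 least (r = 0.636).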

How the data were processed

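Total RNA of 12 pig cell samples was read on the Affymetrix porcine genome array, from biotin-labelled RNA amplified from the 3′ end, per the labels' protocols. Per the submitters' processing notes, the authors used RMA, robust multi-array averaging, and the deposited levels are on the log2 scale, as their range shows. RMA corrects background, gives all arrays 1 distribution and summarises probe sets, so it removes differences in total RNA. The RMA version is not given in the sources used here.

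Levels were fitted in R 4.3.3 with limma 3.58.1 (1 mean per group, all groups, 11 samples, 7 residual degrees of freedom, moderated two-sided tests). Benjamini-Hochberg adjustment ran over 23999 probe sets, leaving out 124 controls. Called means an adjusted p under 0.05. The tests were 5 planned contrasts, the interaction among them, and 2 further pairs of groups (GC against DFAT, DFOG against MA) added to order the levels. Confidence intervals are at 95%. The script was tested on simulated data. The number of arrays limits the precision. Symbols came from the platform annotation, which can be old, and all 7 agreed by gene ID with RefSeq. Of the probe sets, 10069 had 1 symbol, 198 several and 13732 none.

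Named were the 7 genes, the 3 genes most like each varying one, and up to 4 called members per direction and contrast of each related list. Other genes named, such as those that did not pass, were picked after their values were seen. Genes, lists and tests were chosen with earlier results of these data known. The alternatives were the replicate number as a block, DFOG replicates kept separate, each replicate left out, array weights, renewed quantile normalization, centring on 36 poly-A control probe sets, a filter on low levels, a covariate for the actin 3′ and 5′ controls, a variance trend, and the mean over probe sets. Figures were drawn with Python 3.11.15 and matplotlib 3.10.9.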

Additional observations from a re-analysis of the deposited data

Results flagged for a closer look

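For 2 of the 7 genes the change in culture differed between the granulosa and the fat lineage by the interaction test. LHCGR changed by -6.02 from GC to DFOG and by -1.28 from MA to DFAT, a difference of -4.74 on the log2 scale (limma adjusted p = 9.74e-06). NR5A2 changed by -4.75 and 0.44, a difference of -5.19 (limma adjusted p = 8.66e-06). Both differences were called with every alternative run, at -6.16 to -4.49 for LHCGR and -6.61 to -3.53 for NR5A2. In MA the NR5A2 probe set stood only at the 21.6 to 29.9 percentile of its arrays. Such a level cannot be told from background, and from background no fall in fat cells could show. The NR5A2 difference may therefore restate its fall from GC to DFOG. In DFAT the LHCGR probe set stood at the 34.2 to 39.6 percentile, also a level that cannot be told from background. The background for this contrast was 11.6% of all probe sets called lower.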

How the results depend on the processing

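Of 710 recomputed changes of the 7 genes, 654 kept their direction and their side of the threshold, 15 came to pass the test and 2 no longer passed. The other 39 changed sign, of which 36 were not called either way and 3 came to be called, all 3 under poly-A centring. There, ESR2 and FOXL2 turned to 1.31 and 1.21 for GC minus MA, and FOXL2 to -1.39 for the interaction. Poly-A centring also turned FOXL2 (-0.74) for DFOG minus GC, FSHR (0.41) and PRLR (0.60) for DFAT minus MA, and PRLR (-0.038) for DFOG minus DFAT. Outside the 7 genes, and so not among the 710, it turned CREM (-0.20) for DFOG minus GC. In the same way it turned ESR1 (0.18) and NR5A1 (0.30) for DFAT minus MA. The actin covariate turned ESR2 (-0.048), GATA4 (-0.67) and PRLR (0.18) for DFAT minus MA and FOXL2 (-0.0080) for the interaction. Outside the 7 genes it turned ESR1 (-0.095) for DFOG minus DFAT. Array weights turned ESR2 (0.082) for GC minus MA, FOXL2 (-0.0052) and GATA4 (0.041) for DFOG minus GC, PRLR for DFAT minus MA (0.024) and DFOG minus DFAT (-0.010), and FOXL2 (-0.13) for the interaction. Renewed quantile normalization turned ESR2 for DFOG minus GC (0.0013) and GC minus MA (0.041) and PRLR (0.032) for DFAT minus MA, and the mean over probe sets turned GATA4 (0.017) for DFOG minus GC.

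Leaving out 1 replicate at a time, the changes that crossed 0 ranged as follows. For DFOG minus GC, ESR2 ran from -0.14 to 0.093, FOXL2 from -0.032 to 0.11 and GATA4 from -0.85 to 0.16. For DFAT minus MA, ESR2 ran from -0.019 to 0.23, FOXL2 from -0.078 to 0.14 and PRLR from -0.13 to 0.021. ESR2 ran from -0.15 to 0.092 for GC minus MA, FOXL2 from -0.091 to 0.13 for the interaction, and PRLR from -0.015 to 0.13 and ESR1 from -0.046 to 0.32 for DFOG minus DFAT.

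Poly-A centring gave 5 called genes of the 7 for DFOG minus GC, 2 for DFAT minus MA, 7 for GC minus MA and 7 for the interaction, where 3, 1, 4 and 2 were called otherwise. Over all probe sets it gave 10417 calls against 5971 for DFOG minus GC, 8224 against 7706 for DFAT minus MA and 20211 against 9713 for GC minus MA. For the interaction it gave 16761 against 5593 (721 higher and 16040 lower, against 2818 and 2775). With the actin covariate none (0) of the 7 were called for DFAT minus MA. Of the 7, the filter on low levels kept only LHCGR and NR5A2, of which 2 were called for GC minus MA and 1 for DFOG minus DFAT. For DFOG minus DFAT the filter gave 1276 calls among the 12000 probe sets it kept, against 1921 among 23999 without it. Without DFOG replicate 1, 3586 probe sets were called against 5971 for DFOG minus GC and 1103 against 1921 for DFOG minus DFAT, where the lone sample is assumed to vary like the other groups.

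With the replicate number as a block the counts of called genes among the 7 stayed at 3, 1, 4, 3 and 2, and FSHR changed by -1.33 and GATA4 by -0.33 (limma adjusted p = 0.577) for DFOG minus GC. GATA6 lost its call in that block fit (-1.46, limma adjusted p = 0.0579). Deviations of same-numbered arrays correlated over probe sets at 0.604, 0.514 and 0.355 for GC with DFOG and at 0.0999, 0.168 and 0.126 for MA with DFAT. With 1 value under 0.1 and DFOG replicates 2 and 3 counted as 1 sample, the numbers were not taken as pairs, although every array but DFOG replicate 3 correlated best with its own number, a hint from the data and not the design.

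Signal sets a further limit. FOXL2, ESR2 and PRLR lay in the lower part of the array in all groups, and no detection calls were used.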

Other observations

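Some marker genes of other cell types followed the granulosa pattern or opposed it, and were picked after their values were seen. PPARG, the master regulator of fat cells, was highest in MA (12.38 ± 0.26, SD, n = 3) but also stood at 9.98 ± 0.68 (n = 3) in GC, and it changed by -4.60 ± 0.36 (SE) from GC to DFOG (limma adjusted p = 3.99e-06) and by -4.51 ± 0.32 from MA to DFAT (adjusted p = 1.29e-06). INSL3, a hormone of theca cells, read 8.84 ± 0.77 (n = 3) in GC and 5.83 ± 0.20 (n = 2) in DFOG (-3.01 ± 0.34, adjusted p = 6.64e-05). ACTA2, listed as another theca marker, rose by 6.49 ± 0.27 (adjusted p = 3.91e-08). TIE1, a receptor known from endothelial cells, read 8.30 ± 0.20 (n = 3) in GC and 5.82 ± 0.23 (n = 2) in DFOG (-2.47 ± 0.29, adjusted p = 8.45e-05), while CDH5, the endothelial cadherin, averaged 3.92 in both. Of the 8 endothelial markers measured, TIE1 was the only 1 called lower in DFOG than in GC. The 2 called higher were PECAM1 (1.77, adjusted p = 0.00235) and EGFL7 (0.53, adjusted p = 0.0345). KRT19, an epithelial keratin, rose from 3.99 ± 0.13 (n = 3) in GC to 8.47 ± 0.69 (n = 2) in DFOG (4.48 ± 0.30, adjusted p = 1.19e-06), with MA at 4.43 ± 0.36 and DFAT at 4.21 ± 0.26 (n = 3 each).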
